A study of Mus musculus with 8 samples.

Results

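The genes followed here are 10 in number: the 2 corticosteroid receptors of the brain and 8 genes that glucocorticoids are known to induce. They are 10 of the 24883 rows of the expression table, chosen by gene symbol: Nr3c1, Nr3c2, Fkbp5, Tsc22d3, Klf9, Sgk1, Errfi1, Hif3a, Sult1a1 and Plin4. RNA was sequenced from the visual cortex of adult C57BL/6J mice that had received an intracortical injection on postnatal day 122 and were sampled on postnatal day 129. The injected oligonucleotide was complementary to miR-29a in 4 libraries, called anti-miR-29a, and of scrambled order in the 4 control libraries, called scrambled. The oligonucleotides were locked nucleic acids (LNA), whose stiffened sugar backbone lets a short strand bind a microRNA tightly and block it. All 8 libraries therefore came from operated and injected cortex, and no uninjected cortex was analysed here, so the comparison reads the sequence of the oligonucleotide and not the injection itself. Whether each library is a different mouse is not stated in the labels, and p-values then reflect only how far these libraries differ, part of which may be technical.

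Corticosterone, the main glucocorticoid of rodents, crosses into the brain and binds 2 related receptors. The mineralocorticoid receptor (Nr3c2) binds it at low hormone levels, and the glucocorticoid receptor (Nr3c1) is filled mainly when the hormone rises under stress or at the daily peak. Both wait in the cytoplasm on heat shock protein chaperones, move to the nucleus when bound, and attach to glucocorticoid response elements, short inverted repeats in DNA. Genes such as Fkbp5, Tsc22d3, Sgk1 and Klf9 are switched on in many brain cell types, which makes them a common readout of stress and handling.

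None of the 9 genes that could be tested passed over all genes (limma, smallest adjusted p = 0.264). Of all 13912 tested rows 0.0144% passed the adjusted threshold of 0.05 in that fit. At an unadjusted p under 0.05, 2 of the 9 stood higher in the anti-miR-29a libraries, Errfi1 and Tsc22d3, and 0 stood lower, where 7.54% and 3.18% of all tested genes did so. These were also the 2 of the 9 whose groups did not overlap. Over all tested genes, 4.02% had every anti-miR-29a library above every scrambled one and 2.29% had every one below. The difference was positive for 7 and negative for 2, the receptors, and 56.6% of all tested genes had a positive difference. The median log2 difference of the 9 was 0.097, beside 0.026 over all tested genes. Differences are of mean log2(FPKM + 0.1), anti-miR-29a minus scrambled, where FPKM is the fragment number scaled to transcript length and to the mapped fragments of the library. A gene entered the test if it averaged 0.5 FPKM or more, and Plin4 did not. Without anti-miR-29a replicate 4 the count at an unadjusted p under 0.05 was 4 instead of 2, beside 9.14% of all tested genes (limma). The genes added were Nr3c2, lower (adjusted p = 0.525), and Sult1a1, higher (adjusted p = 0.537), in the same fit.

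FPKM is scaled to transcript length, so levels can be set side by side between genes. Klf9 was the most abundant, at 36.3 to 41.9 FPKM over the 8 libraries, followed by Tsc22d3 at 16.6 to 27.4 FPKM. Sgk1 at 11.3 to 15.2 and Nr3c1 at 10.7 to 12.4 FPKM came next and overlapped each other. Errfi1 stood below them at 6.20 to 8.67 FPKM. Fkbp5 at 3.63 to 5.56, Sult1a1 at 1.42 to 5.54 and Nr3c2 at 2.33 to 3.90 FPKM could not be ordered, because their ranges overlapped. Hif3a at 0.697 to 1.25 and Plin4 at 0.123 to 0.417 FPKM were the least abundant. The plot of levels shows that the order held in both groups for all genes but these overlapping neighbours.

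**Figure D1:**
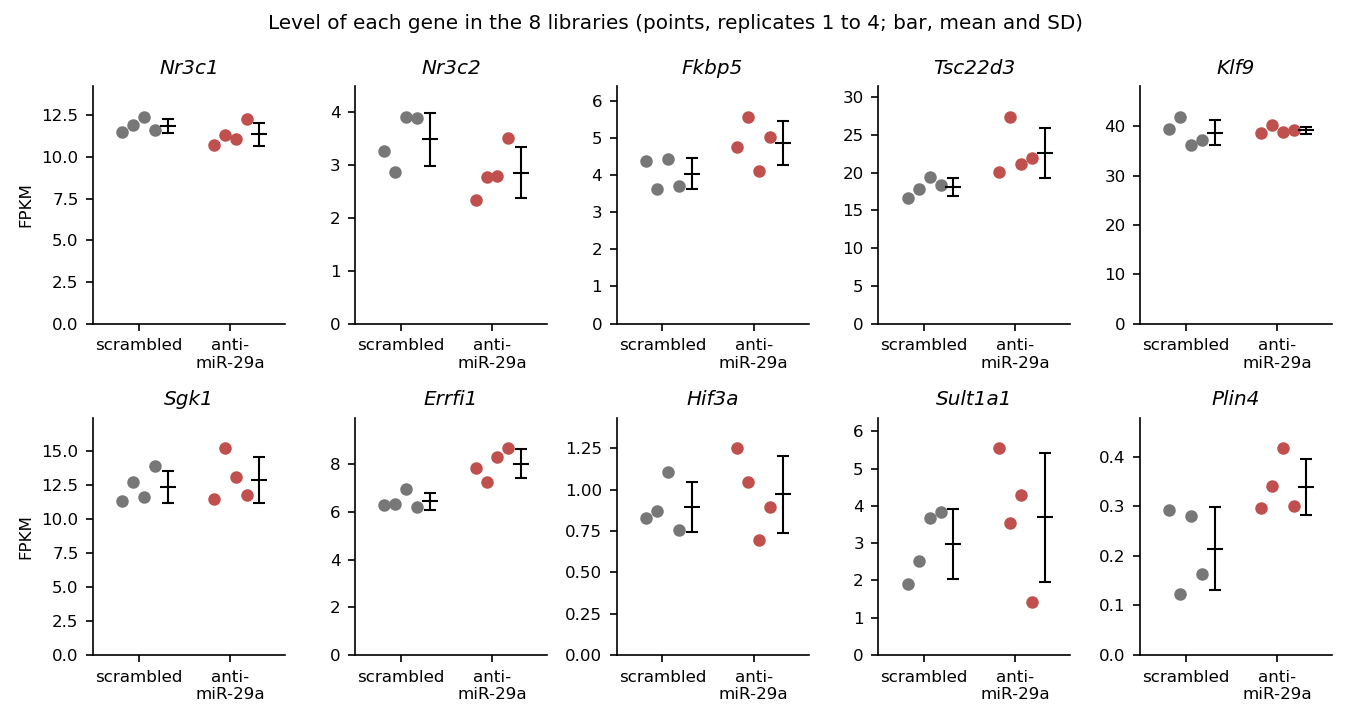
Level of the 10 genes in FPKM (vertical axes, each starting at 0) in the 4 scrambled (grey) and 4 anti-miR-29a (red) libraries, with the group mean and SD as a black bar. In Tsc22d3, Errfi1 and Plin4 every red point lies above every grey one, while the groups overlap in the other 7.

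Sequences bear on these genes in 2 ways, through miR-29 sites in the messenger and through factor motifs near the start of the gene. The microRNAs are shown because their seed, bases 2 to 8 in capitals, is the part that pairs with a target; the blocked miR-29a shares it with its 2 relatives. Sequences are from RefSeq (GRCm38.p6).
mmu-miR-29a-3p: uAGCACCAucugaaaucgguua
mmu-miR-29b-3p: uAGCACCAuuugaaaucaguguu
mmu-miR-29c-3p: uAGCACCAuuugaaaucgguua
The reverse complement of the seed, TGGTGCT, was searched in the longest 3' UTR of each gene's protein-coding transcripts (GENCODE M21, the mm10 assembly). It was present once each in Tsc22d3, Sgk1 and Hif3a, 3 of the 10 genes, and in 15.8% of the 12718 tested genes that have a 3' UTR there. The sites follow with their surroundings, the match in capitals, each within the 3' UTR.
Tsc22d3, chrX:140539909-140539915, minus strand: ccaccattcatTGGTGCTgactacataga
Sgk1, chr10:21999068-21999074, plus strand: tccttccaacgTGGTGCTagctccaggcg
Hif3a, chr7:17031779-17031785, minus strand: cccttccacgaTGGTGCTactctgggtct
In Sgk1 and Hif3a the match is followed by an A, the longer form of site that is usually the stronger one for a microRNA, and in Tsc22d3 by a G. Of these 3 genes Tsc22d3 had groups that did not overlap, whereas Sgk1 and Hif3a had log2 differences of 0.058 and 0.097. Errfi1, the other tested gene with separate groups, had 0 matches over the 1390 nt of its 3' UTR. A match describes the letters and does not show that the microRNA acts there. No relation between a match, or its length, and a difference in level was tested.

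Promoter windows of 300 bases, 250 before to 50 after each annotated start, were matched by symbol for 9 of the 10 genes, with 17 windows in all. The gene with none was Nr3c1. They were searched on both strands for the core glucocorticoid response element, GNACA and TGTNC with 3 bases between, the half-site AGAACA, the cAMP response element TGACGTCA, the AP-1 site TGACTCA and the E-box CACGTG. The half-site can overlap the full element. These motifs were present in 0.475%, 19.0%, 1.79%, 5.20% and 7.15% of the 32851 windows of all genes. The full glucocorticoid element occurred in 1 of the 17 windows, at the fifth of the 6 annotated starts of Sgk1 in genome order, and the cAMP element in 1, at Errfi1. Both windows are shown because they hold these rarer motifs, and no relation between a motif and a difference in level was tested. The motif is in capitals.
Sgk1, chr10:21993640-21993939, plus strand: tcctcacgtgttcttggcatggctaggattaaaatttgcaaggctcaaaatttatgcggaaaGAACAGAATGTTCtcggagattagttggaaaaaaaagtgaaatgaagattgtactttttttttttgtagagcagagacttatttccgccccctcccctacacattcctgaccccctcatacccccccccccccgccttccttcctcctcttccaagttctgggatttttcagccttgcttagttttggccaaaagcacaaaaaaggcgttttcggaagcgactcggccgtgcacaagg
Errfi1, chr4:150854820-150855119, plus strand: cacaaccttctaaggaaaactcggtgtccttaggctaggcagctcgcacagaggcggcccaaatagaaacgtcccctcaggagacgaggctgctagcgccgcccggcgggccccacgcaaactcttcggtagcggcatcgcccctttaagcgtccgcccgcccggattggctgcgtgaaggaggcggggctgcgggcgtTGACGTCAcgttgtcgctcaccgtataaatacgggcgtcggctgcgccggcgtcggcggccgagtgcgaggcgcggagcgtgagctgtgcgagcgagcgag
The Sgk1 element starts 188 bases before the annotated start and the Errfi1 element 51 bases before it. Half-sites were found in 5 of the 17 windows, at Sgk1, Tsc22d3 and Sult1a1, and E-boxes in 2, at Fkbp5 and Sgk1. The AP-1 site was in 0 of the 17. Counted by gene, 21.3% of the 27025 genes with a window had a half-site and 8.09% an E-box. The window is short, and hormone-bound elements often lie far from the start, so no match says only that the letters are not in it.

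The receptors were the 2 tested genes with a negative difference. Nr3c1, the glucocorticoid receptor, read 11.5, 11.9, 12.4 and 11.6 FPKM in scrambled replicates 1 to 4 and 10.7, 11.3, 11.1 and 12.3 FPKM in anti-miR-29a replicates 1 to 4. The groups overlapped, because anti-miR-29a replicate 4 was the second highest of the 8. Its log2 difference was -0.065 with a 95% interval of -0.22 to 0.09 (limma, adjusted p = 0.776; exact two-sided permutation p = 0.229), so the interval runs from 0.858 to 1.06 times the scrambled level. Its within-group spread was small: 6.07% of the 2604 tested genes of like level varied less.

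Nr3c2, the mineralocorticoid receptor, read 3.26, 2.87, 3.90 and 3.88 FPKM in the 4 scrambled and 2.33, 2.77, 2.79 and 3.51 FPKM in the anti-miR-29a libraries. Scrambled replicates 1 and 2 lay within the range of the anti-miR-29a libraries, and anti-miR-29a replicate 4 lay among the scrambled ones. The log2 difference was -0.28 ± 0.157 (standard error; limma, adjusted p = 0.551; exact permutation p = 0.143). Without anti-miR-29a replicate 4 it was -0.38 (adjusted p = 0.525 by limma), and over all alternatives it lay between -0.38 and -0.19. The ratio of Nr3c2 to Nr3c1 FPKM was 0.293 ± 0.0407 in the scrambled group and 0.250 ± 0.0281 in the anti-miR-29a group (SD, n = 4 per group). The exact permutation p for this ratio was 0.200. It is a ratio of messengers, and receptor protein was not measured. In every one of the 8 libraries the mineralocorticoid receptor messenger was less than the glucocorticoid receptor messenger, at ratios of 0.218 to 0.334. In tissue of many cell types, fewer cells of a type and less RNA per cell cannot be told apart, here and below.

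Fkbp5, a co-chaperone that lowers hormone binding by the glucocorticoid receptor and is induced by it in a feedback loop, read 4.38, 3.63, 4.42 and 3.71 FPKM in the 4 scrambled and 4.76, 5.56, 4.11 and 5.01 FPKM in the anti-miR-29a libraries. Of the anti-miR-29a libraries 3 lay above every scrambled one, and replicate 3 lay within their range. Group means were 4.04 ± 0.423 and 4.86 ± 0.601 FPKM (SD, n = 4), a log2 difference of 0.26 with an interval of -0.015 to 0.54 (limma, adjusted p = 0.488; exact permutation p = 0.0857). Without anti-miR-29a replicate 2 the difference was 0.19.

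Among the transcription factors, Tsc22d3 and Klf9 gave different readings. Tsc22d3 encodes GILZ, a leucine zipper protein that carries part of the anti-inflammatory action of glucocorticoids, on chrX:140539528-140600659. Its levels were 16.6, 17.8, 19.5 and 18.4 FPKM in scrambled replicates 1 to 4 and 20.1, 27.4, 21.1 and 21.9 FPKM in the anti-miR-29a libraries. Every anti-miR-29a library was above every scrambled one, by a small margin at replicate 1 and by the widest at replicate 2. Means were 18.1 ± 1.21 and 22.6 ± 3.27 FPKM (SD, n = 4), a 1.24-fold difference with an interval of 1.07 to 1.45 (log2 difference 0.31, limma, unadjusted p = 0.00997, adjusted p = 0.312). The exact permutation p was 0.0286, the smallest that 70 relabellings of 4 against 4 can give. Without anti-miR-29a replicate 2 the log2 difference was 0.22 (limma, adjusted p = 0.456).

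Klf9, a Krüppel-like factor that both corticosteroid receptors and thyroid hormone induce in neurons, read 39.4, 41.9, 36.3 and 37.3 FPKM in the scrambled and 38.6, 40.2, 38.9 and 39.2 FPKM in the anti-miR-29a libraries. All 4 anti-miR-29a libraries lay inside the scrambled range. Its log2 difference was 0.022 with an interval of -0.10 to 0.15 (limma, adjusted p = 0.915; exact permutation p = 0.714), and its sign changed with the scaling of the libraries. This is the tightest interval of the 9, from 0.931 to 1.11 times the scrambled level, and it leaves out the 1.24-fold difference measured for Tsc22d3. The difference between the 2 genes was not itself tested.

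Hif3a, a relative of the hypoxia-inducible factors that glucocorticoids raise in several tissues, was near the lower limit at 0.831, 0.874, 1.11 and 0.759 FPKM in scrambled and 1.25, 1.05, 0.697 and 0.894 FPKM in anti-miR-29a libraries. The highest and the lowest of the 8 values were both in the anti-miR-29a group. The log2 difference was 0.097 (limma, adjusted p = 0.915; exact permutation p = 0.657), and -0.024 without anti-miR-29a replicate 1.

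The plot of differences places each gene against the spread of all tested genes, whose log2 differences ran from -0.326 at the 5th to 0.421 at the 95th percentile. All 9 differences lay inside that range.

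**Figure D2:**
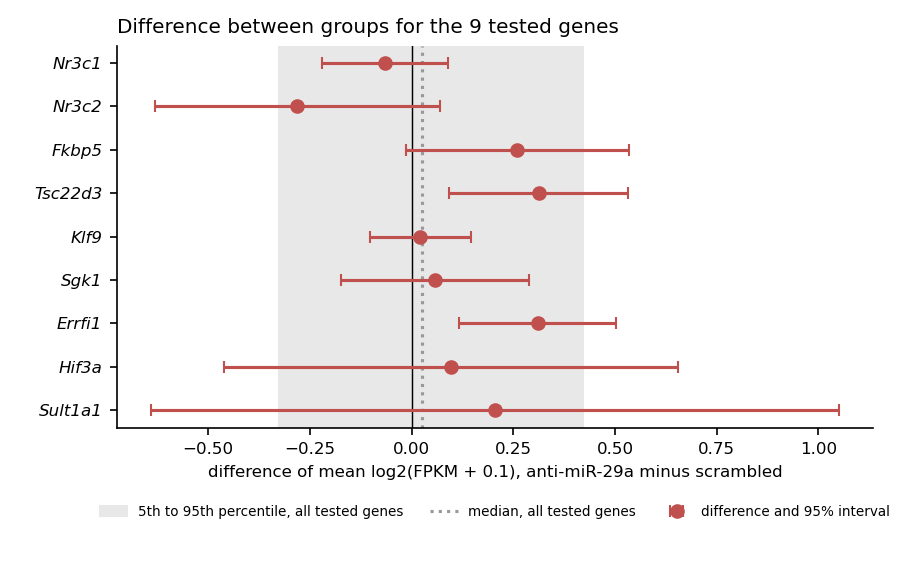
Difference of mean log2(FPKM + 0.1), anti-miR-29a minus scrambled (horizontal axis), for the 9 tested genes with the 95% interval from limma; the grey band spans the 5th to 95th percentile of all tested genes and the dotted line is their median of 0.026. The intervals of Tsc22d3 and Errfi1 lie above 0 before adjustment, and that of Klf9, at 0.022, is the narrowest.

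A pair of the induced genes acts in kinase signalling. Sgk1 encodes a serine and threonine kinase that glucocorticoids and aldosterone induce and that regulates ion channels, on chr10:21882184-21999903. It read 11.3, 12.7, 11.6 and 13.9 FPKM in the scrambled and 11.5, 15.2, 13.1 and 11.8 FPKM in the anti-miR-29a libraries. The groups were interleaved, with only anti-miR-29a replicate 2 above the scrambled range. The log2 difference was 0.058 with an interval of -0.17 to 0.29 (limma, adjusted p = 0.872; exact permutation p = 0.629), and -0.023 without that library.

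Errfi1 encodes Mig6, an inhibitor of the EGF receptor family that glucocorticoids, growth factors and neuronal activity induce, on chr4:150853919-150868892. It read 6.28, 6.35, 6.95 and 6.20 FPKM in the scrambled and 7.85, 7.26, 8.31 and 8.67 FPKM in the anti-miR-29a libraries. The groups did not overlap, and the gap lay between scrambled replicate 3 and anti-miR-29a replicate 2. Means were 6.45 ± 0.345 and 8.02 ± 0.610 FPKM (SD, n = 4), a 1.24-fold difference with an interval of 1.08 to 1.42 (log2 difference 0.31, limma, unadjusted p = 0.00498, adjusted p = 0.264; exact permutation p = 0.0286). Over all 18 alternatives the log2 difference stayed between 0.26 and 0.36 and the adjusted p by limma between 0.204 and 0.477. The antisense gene annotated across Errfi1, 1700045H11Rik, was listed at 0 in all 8 libraries.

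Errfi1 and Tsc22d3 had nearly the same mean difference but not the same libraries at the top. Against the scrambled mean, Errfi1 was highest in anti-miR-29a replicate 4 at 0.424 log2 units and lowest of that group in replicate 2 at 0.171, whereas Tsc22d3 was highest in replicate 2 at 0.600. Fkbp5 and Sgk1 shared that high library, at 0.459 and 0.299. Klf9 stood at 0.056 in it. By the spacing of low values this library was also the deepest of the 8, at 1.169 times the depth of scrambled replicate 1, and the part of depth in these values was not tested. The median over the 9 tested genes was 0.221 in anti-miR-29a replicate 2, the highest of the 8 libraries, beside 0.068 over all tested genes there. The other medians were 0.150, 0.031 and 0.026 for anti-miR-29a replicates 1, 3 and 4 and ran from -0.079 to 0.112 in the scrambled libraries, with scrambled replicate 3 at the top. The medians of the groups therefore overlapped.

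**Figure D3:**
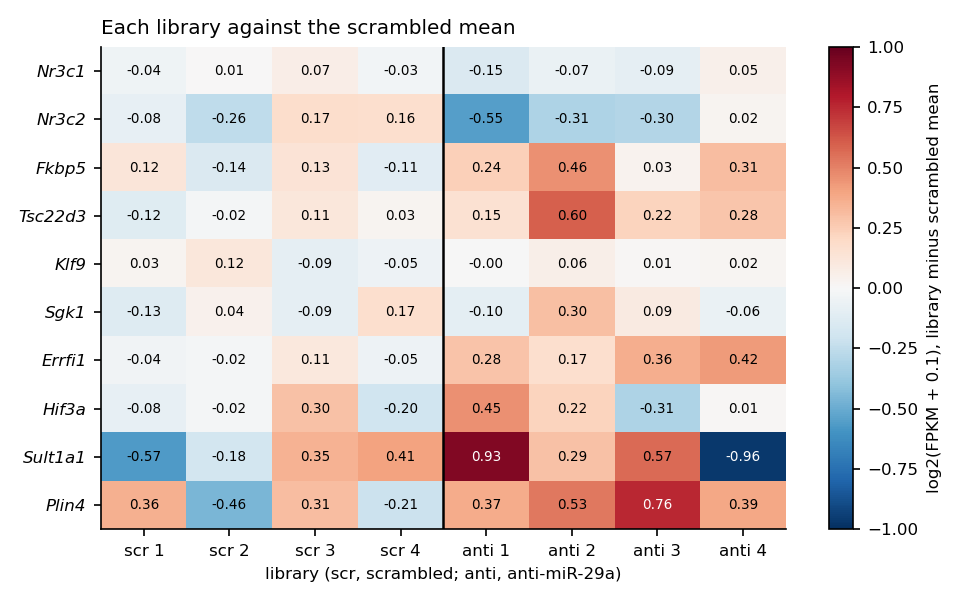
Log2(FPKM + 0.1) of each library minus the scrambled mean (colour and number) for the 10 genes (rows) in the 4 scrambled and 4 anti-miR-29a libraries (columns). Fkbp5, Tsc22d3 and Sgk1 are highest in anti-miR-29a replicate 2, at 0.459, 0.600 and 0.299, and Errfi1 in replicate 4, at 0.424.

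The 2 genes of metabolism were the least precise. Sult1a1, a sulfotransferase of phenols and drugs, read 1.90, 2.51, 3.67 and 3.83 FPKM in scrambled and 5.54, 3.53, 4.30 and 1.42 FPKM in anti-miR-29a libraries. Both the highest and the lowest values were in the anti-miR-29a group, and 97.6% of the 2154 tested genes of like level varied less within groups. The log2 difference was 0.20 with an interval of -0.64 to 1.05 (limma, adjusted p = 0.877; exact permutation p = 0.686). It was 0.60 without anti-miR-29a replicate 4 and -0.036 without replicate 1 of that group. Sult1a1 overlaps a gene on the other strand, Sgf29, and the library kit does not keep the strand.

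Plin4, a coat protein of lipid droplets that is abundant in fat cells, was below the filter. It read 0.292, 0.123, 0.280 and 0.164 FPKM in scrambled and 0.296, 0.342, 0.417 and 0.301 FPKM in anti-miR-29a libraries. Every anti-miR-29a value was above every scrambled one, but the gap between 0.292 and 0.296 is far smaller than the spread within either group. The exact permutation p was 0.0286, and with no filter on low values limma gave a log2 difference of 0.51 (unadjusted p = 0.0737, adjusted p = 0.574 over 18614 rows). The fat cell genes Adipoq and Cidec were listed at 0 in all 8 libraries, and Plin1 in 7 of 8 with 0.116 FPKM in the remaining one. Plin4 overlaps Hdgfl2 on the other strand.

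Other genes that glucocorticoids induce were read from a wider list of 27, all of them tested. Of these 23 had a positive difference, where 56.6% of all tested genes had one, and 0 passed over all genes. At an unadjusted p under 0.05, 5 were higher and 0 lower, against 7.54% and 3.18% of all tested genes, and the median log2 difference was 0.132. The 4 of smallest p were Cdkn1a, Per1, Mt1 and Dusp1. Cdkn1a, an inhibitor of cyclin-dependent kinases, read 11.3 ± 0.650 and 15.8 ± 1.30 FPKM in scrambled and anti-miR-29a libraries (SD, n = 4; log2 difference 0.48, limma, adjusted p = 0.106), with no overlap. Per1, a clock gene with both hormone and cAMP elements, read 18.8 ± 2.72 and 30.8 ± 7.44 FPKM (log2 difference 0.69, limma, adjusted p = 0.220). Dusp1, a phosphatase that ends MAP kinase signalling, read 43.8 ± 15.4 and 74.2 ± 14.5 FPKM (limma, adjusted p = 0.327), also with no overlap. Cdkn1a and Dusp1 were the 2 of the 27 that stood higher with no overlap, and 0 stood lower. Of all tested genes 4.02% and 2.29% did so. Mt1, a metallothionein, read 326 ± 43.3 and 417 ± 64.1 FPKM (limma, adjusted p = 0.313). Over the 27 genes the log2 differences ran from -0.209 to 1.175.

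Per1, Dusp1 and Errfi1 are also known to be switched on by neuronal firing, so activity-regulated genes were read beside them. Of 10 such genes, 0 passed over all genes, 9 had a positive difference (56.6% of all tested genes) and 8 stood higher with groups that did not overlap (4.02% of all tested genes), at a median log2 difference of 0.808. Their summed level was 341 to 722 FPKM in scrambled and 823 to 1020 FPKM in anti-miR-29a libraries, and none was at 0. Nr4a1, a nuclear receptor gene, read 67.7 ± 24.4 and 134 ± 12.9 FPKM (SD, n = 4; log2 difference 1.07, limma, adjusted p = 0.220), and Arc 111 ± 36.9 and 191 ± 28.1 FPKM. Within the anti-miR-29a group Nr4a1, Arc and Junb were highest in replicate 2, at 153, 230 and 132 FPKM, and Fosb in replicate 1, at 13.6 FPKM. Per1 at 40.4 and Dusp1 at 90.4 FPKM were also highest in replicate 2. Errfi1 was lowest of the group in replicate 2, at 7.26 FPKM. The part of this response in the values of Errfi1 was not tested. Of 13 clock genes, which a different hour of sampling would shift, 10 had a positive difference and 0 passed. Their log2 differences ran from -0.236 to 0.775, with a median of 0.032. At an unadjusted p under 0.05 (limma) 2 were higher, Ciart and Per1, at 0.775 and 0.690 log2 units. Of all tested genes 7.54% were higher at that threshold. The hour of sampling is not given in the labels, and its part in these values was not tested.

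Chaperones and cofactors of the receptors were read as 2 lists, and 0 members of either passed over all genes. Of 10 chaperones 7 had a positive difference and the median was 0.017, with Dnajb1 at 0.23 and Cdc37 at 0.11 log2 units (limma, adjusted p = 0.360 and 0.481). Of 10 cofactors 7 had a negative difference, 2 were lower at an unadjusted p under 0.05 (3.18% of all tested genes), and the median was -0.128. Ncor1, a corepressor, read 27.8 ± 2.11 and 24.6 ± 0.891 FPKM (SD, n = 4; limma, adjusted p = 0.391), and Nrip1, a corepressor of several nuclear receptors, 4.05 ± 1.01 and 2.96 ± 0.308 FPKM with no overlap (limma, adjusted p = 0.423). Nrip1 was the 1 cofactor of 10 that was lower with no overlap, where 2.29% of all tested genes were. Among the genes that set how much hormone reaches the receptor, Hsd11b1, which regenerates corticosterone inside cells, read 8.64 ± 0.795 and 8.61 ± 2.96 FPKM. Hsd11b2, which inactivates the hormone, was listed at 0 in 7 of the 8 libraries and at 0.0297 FPKM in the other. Crh, the stress peptide of some cortical interneurons, read 4.35 ± 1.18 and 4.95 ± 1.75 FPKM (limma, adjusted p = 0.877). Of 7 substrates and channels downstream of Sgk1, 3 had a positive difference and the median was -0.023.

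**Figure D4:**
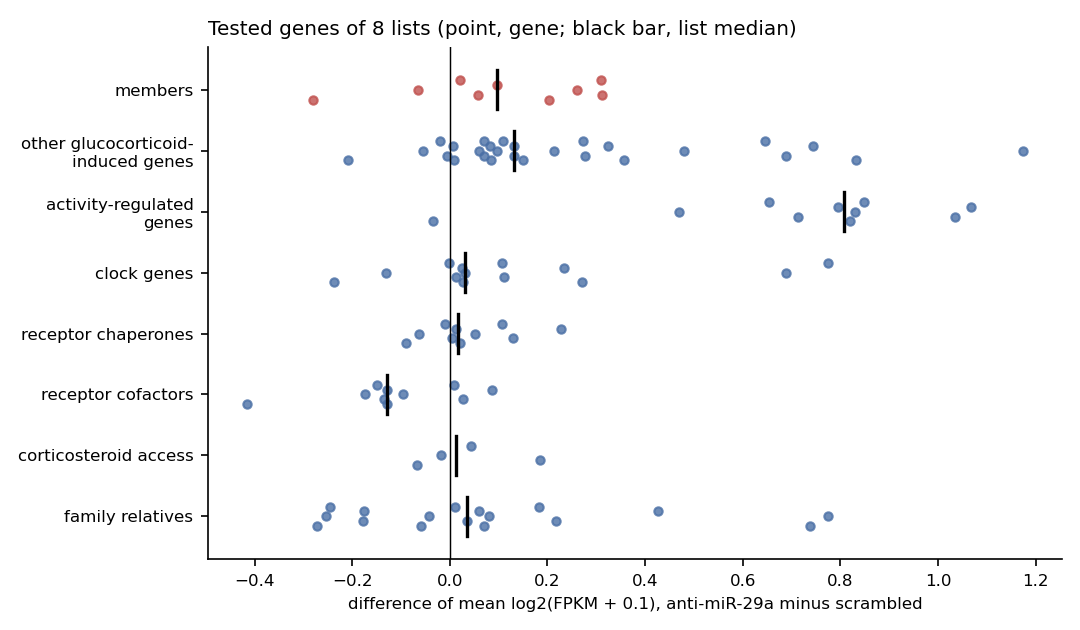
Difference of mean log2(FPKM + 0.1), anti-miR-29a minus scrambled (horizontal axis), for each tested gene (points) of 8 lists (rows), with the list median as a black bar. Medians are 0.097 for the members, the 9 tested genes described here, 0.132 for other glucocorticoid-induced genes and 0.808 for activity-regulated genes, and -0.128 for receptor cofactors.

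Relatives of the same gene families had differences in both directions. Of 17 tested relatives, 10 had a positive difference, the median was 0.036 and 0 passed. Klf2 and Klf4 read 0.74 and 0.77 log2 units higher and Klf13 0.18 lower (limma, adjusted p = 0.234, 0.338 and 0.309), while Klf9 differed by 0.022. Of the 17, 1 stood higher with no overlap, Klf2, and 1 lower, Klf13. Of all tested genes 4.02% and 2.29% did so. Hif1a, the main hypoxia factor, read 9.19 ± 0.377 and 7.73 ± 0.919 FPKM (SD, n = 4; limma, adjusted p = 0.382).

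Markers of other cell types were read beside these values. Neuron markers summed to 2850 to 3020 FPKM in scrambled and 2760 to 3050 FPKM in anti-miR-29a libraries. Of the 6, 4 had a negative difference, and Syt1 and Gad1 were lower with no overlap (2.29% of all tested genes), at log2 differences of -0.097 and -0.073. Astrocyte markers summed to 587 to 768 and 600 to 934 FPKM with a median log2 difference of 0.129. Their 3 negative differences were no lower than -0.004. At an unadjusted p under 0.05, 2 of the 6 stood higher, where 7.54% of all tested genes did. These were Gfap at 0.724 and Gja1 at 0.259 log2 units (limma, adjusted p = 0.457 and 0.385). Endothelial markers summed to 63.8 to 87.8 and 81.6 to 88.6 FPKM with 3 of 5 positive, and microglia markers to 53.0 to 81.9 and 50.9 to 68.2 FPKM with 2 of 5 positive. Fibroblast markers summed to 17.1 to 32.3 and 26.8 to 50.3 FPKM, with all 4 tested positive, at a median log2 difference of 0.775. Of these 4, 3 were higher at an unadjusted p under 0.05 (limma), beside 7.54% of all tested genes. Mural cell markers summed to 19.2 to 27.6 and 15.7 to 25.3 FPKM. Of the 4, 3 were positive, and Rgs5 was lower at -0.419 log2 units (limma, adjusted p = 0.419). Oligodendrocyte markers were negative in 6 of 6, at a median of -0.150. No marker of these lists was at 0 in all libraries. Red blood cell markers summed to 14.9 to 163 and 81.3 to 135 FPKM, and choroid plexus markers to at most 2.06 FPKM in any library. All 3 red blood cell markers were positive, and the groups overlapped in each. Their median log2 difference of 1.207 was that of Alas2, which averaged 0.455 and 0.888 FPKM and was at 0 in scrambled replicate 3. Hbb-bs read 0.00323 FPKM in that library. The part of these cell types in the values of Errfi1 and Tsc22d3 was not tested.

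Genes whose pattern over the 8 libraries was most like that of a member were ranked by the root mean square difference of values scaled to each gene's own mean and SD. For Errfi1 they were Psmc5, a proteasome subunit gene, at 0.224 SD, Ubb, a ubiquitin gene, at 0.264 SD and Rsl1d1 at 0.266 SD. For Tsc22d3 they were Med25, Tkfc and Cbr3, at 0.178, 0.200 and 0.236 SD, and for Fkbp5 Ip6k1, Tst and Serpinf1, at 0.187, 0.210 and 0.223 SD. These are the closest among all genes with a mean of 1 FPKM or more, over 8 libraries that share the group difference, so likeness is a description of these libraries only.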

How the data were processed

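The authors deposited 1 table of FPKM with 24883 gene rows and 8 libraries, 537 of the rows repeating a symbol. The genome build was mm10 and the tools named are Cuffnorm, Bowtie and CASAVA 1.8.2, per the submitters' processing notes; order of use, annotation and library scaling: not given in the sources used here. Total counts are unknown. Spacing of low values put relative depths at 0.983 to 1.169 of scrambled replicate 1, and 12538 to 12769 rows reached 1 FPKM. Across genes, log2 values of 2 libraries of one group correlated at 0.932 to 0.963, and of different groups at 0.931 to 0.957.

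Rows with a mean of at least 0.5 FPKM, 13912 of them, were fitted as log2(FPKM + 0.1) with limma 3.58.1 in R 4.3.3, group as the only term, a variance trend, two-sided tests, Benjamini-Hochberg adjustment over all rows and a threshold of 0.05. This scale understates changes of low genes. Single genes also had an exact two-sided permutation test over 70 relabellings. The fit was tested on simulated data. Gene positions and 3' UTRs came from GENCODE M21, and promoters and microRNAs from RefSeq. The 10 genes and all lists were chosen with earlier results of these data known. All 10 are named, with up to 4 genes of smallest p from each other list and the 3 most alike genes averaging 1 FPKM or more. Promoter motifs were chosen after the windows were seen.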

Additional observations from a re-analysis of the deposited data

How the results depend on the processing

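No member was called under any of the 18 alternatives by limma. Of all tested genes 2 were called, 10 with robust empirical Bayes, 1 with no filter, 1 with a mean of at least 5 FPKM, 0 with the replicate number as a block (1476 at an unadjusted p under 0.05) and 1 to 4 with 1 library left out. Same-numbered libraries deviated together with r of -0.106 to 0.014 across genes, so the shared numbers are not shown to pair samples; with the block Errfi1 and Tsc22d3 had an adjusted p of 0.354 each by limma. Leaving 1 library out put 2 to 4 members at an unadjusted p under 0.05 (limma), beside 8.79% to 11.3% of all tested genes. The median log2 difference of the members was then 0.030 to 0.195. It was 0.195 without scrambled replicate 3, 0.030 without anti-miR-29a replicate 1 and 0.031 without scrambled replicate 1. Klf9 changed sign with quantile normalization (-0.007), median centring (-0.008) and without scrambled replicate 3 (-0.009). Sult1a1 did so with array weights (-0.021) and without anti-miR-29a replicate 1 (-0.036), Hif3a without that library (-0.024) and Sgk1 without anti-miR-29a replicate 2 (-0.023). With 1 library left out the ranges were -0.009 to 0.060 for Klf9, -0.036 to 0.595 for Sult1a1, -0.024 to 0.230 for Hif3a and -0.023 to 0.113 for Sgk1. Errfi1, Tsc22d3, Fkbp5, Nr3c1 and Nr3c2 kept their sign in every alternative that could be run. The smooth trend on transcript length, once removed, left Errfi1 and Tsc22d3 at 0.26 log2 units each. At a given transcript length and depth, a lower FPKM rests on fewer fragments. Fkbp5, Sult1a1, Nr3c2, Hif3a and Plin4 averaged under 5 FPKM, and the number of fragments behind their values is unknown.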

Other observations

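Among genes downstream of Sgk1 and of the receptors, Scnn1a, a subunit of the epithelial sodium channel, read 2.45 ± 0.672 FPKM in the scrambled group and 3.30 ± 0.235 FPKM in the anti-miR-29a group (SD, n = 4; log2 difference 0.45, limma, adjusted p = 0.420), with overlap. Nedd4l, the ubiquitin ligase that Sgk1 restrains, read 17.9 ± 1.28 and 16.6 ± 0.844 FPKM (log2 difference -0.11, limma, adjusted p = 0.630). Srd5a1, which reduces steroid hormones, read 3.10 ± 0.417 and 3.55 ± 0.624 FPKM (log2 difference 0.18, limma, adjusted p = 0.692). For the receptor genes the most alike patterns over the 8 libraries were those of Myt1, Pcyox1 and Cep78 for Nr3c2, at 0.272, 0.299 and 0.324 SD, and of Syt10, Cyp2u1 and Ddc for Nr3c1, at 0.272, 0.272 and 0.289 SD.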
